A study of Mus musculus with 13 samples.

Results

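E proteins and Id factors are the 6 helix-loop-helix genes Tcf3, Tcf4, Tcf12, Id1, Id2 and Id3. They were taken by name from the 47937 genes of a read count table of sorted mouse thymocytes, and all 6 were found there. DN3 and DN4 thymocytes are the CD4- CD8- stages before and after β-selection, the checkpoint at which a cell must carry a working T cell receptor β chain. They were sorted from C57BL/6 mice, 6 weeks old, in 13 libraries from 7 mouse numbers. The Wt groups (WT;Lck-Cre+; 3 DN3 and 4 DN4 libraries) and the KO-labelled groups (Opa1fl/fl;Lck-Cre+; 3 DN3 and 3 DN4 libraries) all carry Lck-Cre, a recombinase under a T lineage promoter. The second genotype is called KO-labelled because Opa1 itself, the gene to be deleted, was not lower by the test: its level was 96.5 ± 9.45 CPM (counts scaled to library size; SD, n = 3) in Wt DN3, 90.4 ± 2.10 (n = 3) in KO-labelled DN3, 89.2 ± 3.61 (n = 4) in Wt DN4 and 82.9 ± 4.71 (n = 3) in KO-labelled DN4. A deletion of a few exons can leave reads over the rest of a transcript, so gene counts are a weak check of these labels. The study also examined OPA1 protein by immunoblot, which is not analysed here.

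E proteins are basic helix-loop-helix transcription factors that bind E-box motifs as pairs. Tcf3, Tcf4 and Tcf12, which encodes HEB, make the E proteins of lymphocytes, and E protein pairs hold thymocytes at the DN3 stage and drive genes such as Ptcra and Rag1. Id proteins have the helix-loop-helix but no basic stretch, so an E protein paired with an Id cannot bind DNA. Signals from the pre-T cell receptor are known to raise Id3 through Egr factors, which lowers E protein activity at β-selection.

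The helix-loop-helix through which members of both classes pair can be read from the coding sequence, shown here for 5 members with the basic stretch of the E proteins. Each run is printed 5′ to 3′ on the coding strand, from the GENCODE M21 annotation and its transcripts on GRCm38. Capitals mark the codons of the basic stretch, 15 residues directly before the helix-loop-helix. The Id runs hold the aligned helix-loop-helix alone and do not show what precedes it. Each lies within 1 coding exon.
Tcf3, transcript Tcf3-206, chr10:80412840-80413004, minus strand: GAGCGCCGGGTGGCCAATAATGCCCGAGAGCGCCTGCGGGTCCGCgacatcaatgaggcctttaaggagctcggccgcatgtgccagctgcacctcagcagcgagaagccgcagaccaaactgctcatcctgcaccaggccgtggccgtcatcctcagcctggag
Tcf3, transcript Tcf3-202, chr10:80410411-80410575, minus strand: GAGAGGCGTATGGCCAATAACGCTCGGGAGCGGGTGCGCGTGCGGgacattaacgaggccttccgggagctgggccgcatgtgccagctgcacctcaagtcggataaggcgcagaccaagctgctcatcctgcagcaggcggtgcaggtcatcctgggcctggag
Tcf12, transcript Tcf12-202, chr9:71856318-71856482, minus strand: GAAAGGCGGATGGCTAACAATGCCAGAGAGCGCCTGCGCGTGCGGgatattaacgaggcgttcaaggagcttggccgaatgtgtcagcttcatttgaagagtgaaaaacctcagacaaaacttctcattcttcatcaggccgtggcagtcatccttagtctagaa
Id1, transcript Id1-202, chr2:152736521-152736637, plus strand: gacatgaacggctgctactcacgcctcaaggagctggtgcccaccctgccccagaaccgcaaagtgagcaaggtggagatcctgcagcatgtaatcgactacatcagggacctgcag
Id2, transcript Id2-203, chr12:25095783-25095899, minus strand: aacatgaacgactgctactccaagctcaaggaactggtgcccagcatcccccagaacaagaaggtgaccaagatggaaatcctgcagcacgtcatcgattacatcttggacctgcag
Id3, transcript Id3-201, chr4:136144005-136144121, plus strand: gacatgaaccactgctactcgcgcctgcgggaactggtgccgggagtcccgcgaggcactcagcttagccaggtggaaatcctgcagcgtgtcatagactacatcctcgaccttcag

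Tcf3 has alternative exons for this stretch. Its 9 complete coding transcripts carry 2 versions, with 46 of 55 residues identical between the pair shown, and a count per gene sums over them. The 7 complete Tcf12 transcripts carry 1 version. In the helix-loop-helix the E proteins shared 92.5 to 97.5% of residues with one another, taking Tcf3-206 for Tcf3, the Ids shared 61.5 to 76.9%, and an E protein and an Id shared 20.5 to 28.2%. The basic stretch of the E proteins was 93.3 to 100% identical. Despite this likeness in protein, no stretch of 50 bases in the exons of one member occurred in another. At most 0.329% of the 50-base stretches of a member, those of Id2, occurred in any other gene, so reads of this length could be told apart.

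The libraries held 5926848 to 14148661 counts. In the Wt DN3 library of mouse WT05, 40.8% of counts fell on 7 genes that were high in 1 library, against 0.423 to 1.70% elsewhere, which left 3506777 counts for all others. Xist was above 10 CPM in all KO-labelled libraries, in 2 of 3 Wt DN3 and in 2 of 4 Wt DN4 libraries, so sex was not balanced over genotype. The stages followed their labels: the 6 DN3 markers summed to 2779 to 3739 CPM in DN3 and 562 to 842 CPM in DN4 libraries. Markers of other cells were present in DN4. The 7 B cell markers were all detected there and summed to 242 to 3076 CPM, against 21.5 to 56.1 CPM in DN3. The 6 markers of immature single positive and double positive cells summed to 572 to 3431 CPM in DN4, highest in KO-labelled mouse KO45, and the 9 NK and innate lymphoid markers to 243 to 456 CPM, against 126 to 156 CPM in DN3, where Ncr1, Klrb1c and Klrk1 were at 0. Fewer cells of a type and less RNA per cell cannot be told apart in such bulk samples.

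Id3 transcripts rose from DN3 to DN4 in both genotypes and Id2 transcripts in Wt mice, and no E protein gene was called in either genotype in these comparisons. Tcf4 was called under some of the alternatives given with its values. In Wt mice, 2 of the 5 members that could be tested were called, both higher in DN4. In KO-labelled mice, 1 was called, Id3, and Id2 missed the threshold. With the mouse as a block, Id2 (higher) and Tcf4 (lower) passed there as well. Id1 was too low to be tested. Calls are at an adjusted p under 0.05 from edgeR's quasi-likelihood test over all genes. In Wt mice 22.9% of 12691 genes were called, 13.4% higher and 9.43% lower in DN4, and in KO-labelled mice 18.6% of 12580 genes, 11.2% higher and 7.34% lower (2338 genes, and 4499 with the mouse as a block), so a call is common between these stages. The medians over the tested members, at log2 fold changes of -0.14 and -0.09, were set by the E proteins, beside -0.03 and -0.02 over all genes.

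**Figure D1:**
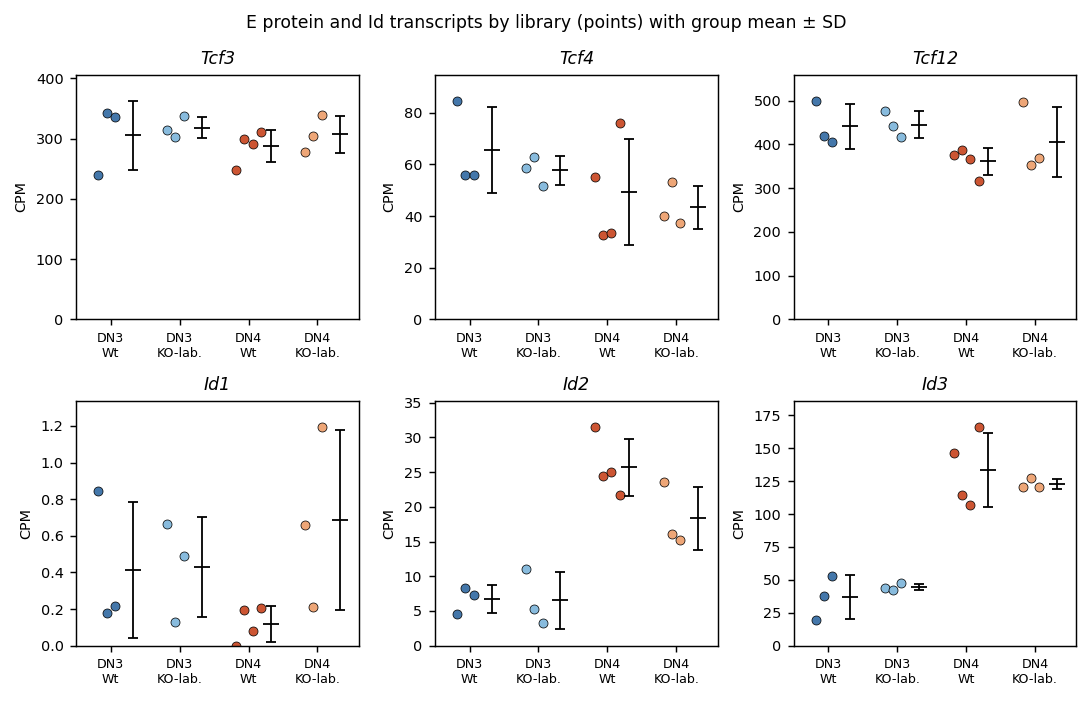
Level of each member in CPM (vertical axis, from 0) in every library (points) of the 4 groups on the horizontal axis, with the group mean ± SD beside them (bars). Id2 and Id3 points of DN4 all lie above those of DN3. The E protein points of the stages overlap in each genotype, except for Tcf12 in Wt, where those of DN4 lie below those of DN3.

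Tcf3, the gene of the best-known thymic E protein, lay between 240 and 342 CPM in all 13 libraries. In Wt DN3 it stood at 240 CPM in mouse WT05, 342 in WT46 and 335 in WT48, and in Wt DN4 at 249 CPM in WT05, 299 in WT40, 292 in WT46 and 311 in WT48. In KO-labelled mice KO45, KO49 and KO51 it was 315, 303 and 337 CPM in DN3 and 277, 305 and 339 CPM in DN4. The groups overlap, and mouse WT05 was the lowest at both stages. The log2 fold change of DN4 against DN3 was -0.14 (95% interval -0.47 to 0.19, adjusted p = 0.547 by edgeR) in Wt and -0.09 (-0.37 to 0.19, adjusted p = 0.635) in KO-labelled mice. A fall by more than 0.47 on the log2 scale lies outside both intervals.

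Tcf12 encodes HEB, which pairs with the Tcf3 products in thymocytes. Its Wt DN3 levels were 500 CPM in WT05, 418 in WT46 and 406 in WT48, and its Wt DN4 levels 377 CPM in WT05, 387 in WT40, 366 in WT46 and 316 in WT48. All Wt DN4 libraries were below all Wt DN3 libraries, with a log2 fold change of -0.34 (SE 0.13, n = 3 and 4) that missed the threshold at an adjusted p of 0.0972 by edgeR. In KO-labelled mice KO45, KO49 and KO51 the DN3 levels were 477, 442 and 417 CPM and the DN4 levels 498, 352 and 369 CPM. There the groups overlap through DN4 of KO45, the library with the most CD4 and CD8 transcripts (Cd4 at 685 CPM, against 18.6 to 249 CPM in the other DN4 libraries). The log2 fold change was -0.18 (95% interval -0.51 to 0.16, adjusted p = 0.436 by edgeR) with this library and -0.37 (adjusted p = 0.0754) without it. The part of double positive cells in the KO45 value was not tested.

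Tcf4, an E protein gene best known from plasmacytoid dendritic cells and also used in B cells, had the lowest level of the E proteins. In Wt DN3 it was at 84.6 CPM in WT05 and at 56.04 and 56.05 in WT46 and WT48, and in KO45, KO49 and KO51 at 58.6, 62.7 and 51.7 CPM. In Wt DN4 it was at 55.2 CPM in WT05, 32.8 in WT40, 33.3 in WT46 and 76.0 in WT48, and in KO-labelled DN4 at 40.04, 53.0 and 37.4 CPM in KO45, KO49 and KO51. The level was lower in DN4 in 5 of the 6 mice with both stages and higher in WT48, by a log2 difference of 0.44. By edgeR, the log2 fold change was -0.46 (95% interval -1.19 to 0.27, adjusted p = 0.348) in Wt and -0.45 (-0.81 to -0.08, adjusted p = 0.0917) in KO-labelled mice. With the mouse as a block, Tcf4 was called lower in KO-labelled mice, at -0.46 (adjusted p = 0.00890), and not in Wt mice, at -0.36 (adjusted p = 0.378). It was also called in KO-labelled mice without DN4 of KO49, at -0.62 (adjusted p = 0.0372 by edgeR), and at no other omission of a single library.

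In DN4 the Tcf4 level ran with the 7 B cell markers, among them Cd79a, Ms4a1 and Pax5. Their sum was 242, 337 and 454 CPM in KO51, WT40 and WT46, where Tcf4 was lowest, and 1082, 1604, 1841 and 3076 CPM in KO45, WT05, KO49 and WT48. In these libraries Tcf4 ranged from 32.8 to 37.4 CPM in the former and from 40.04 to 76.0 CPM in the latter. Without the 4 DN4 libraries highest in these markers, an alternative chosen after seeing the data, Tcf4 was lower in DN4 of Wt mice by a log2 fold change of -1.03 (adjusted p = 0.0358 by edgeR, 2 DN4 libraries), and in KO-labelled mice by -0.62 (adjusted p = 0.142, 1 DN4 library, assumed to vary like the others). With their summed level as a covariate, also chosen then, the Wt value was -1.16 (adjusted p = 0.0155) and the KO-labelled value -0.77 (adjusted p = 0.0993). The 8 plasmacytoid dendritic cell markers, some of which B cells also use, summed to 200.5 to 474 CPM in DN3 and 542 to 1274 CPM in DN4, and were highest in the same 4 DN4 libraries, at 823 to 1274 CPM against 542 to 779 CPM in the others. Of the 8, Ccr9 had the highest mean in each group and so the largest part of the sum. Its means in DN3 and DN4 were 171 and 576 CPM in Wt and 169 and 518 CPM in KO-labelled mice. The defining marker Siglech was at 0 in DN3 and at most 0.292 CPM in DN4. Between the stages Pacsin1, Ccr9 and Irf8 rose and Runx2 fell in both genotypes, and Bst2 also fell in KO-labelled mice. The part of these cells in the Tcf4 values was not tested.

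**Figure D2:**
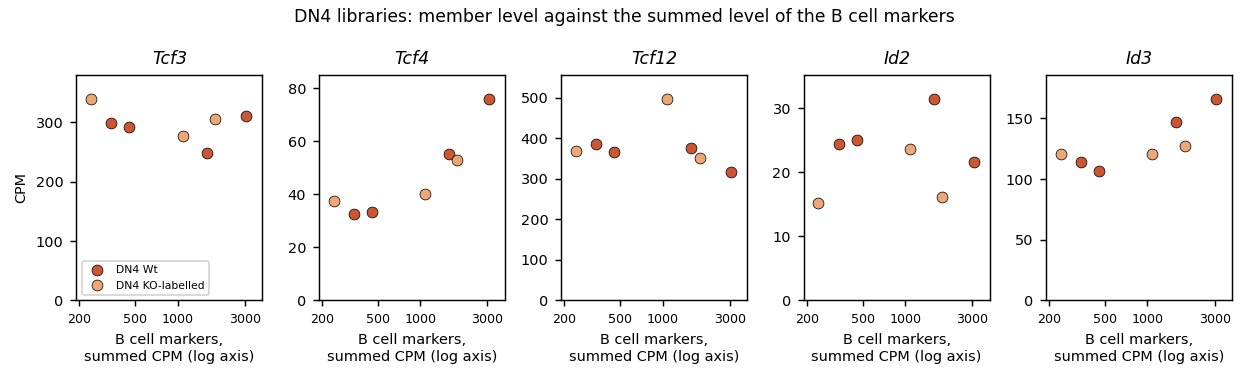
Level of 5 members in CPM (vertical axes, from 0) against the summed CPM of the 7 B cell markers (horizontal log axis) in the 7 DN4 libraries, coloured by genotype. Tcf4 is lowest in the 3 libraries below 500 CPM of marker and highest, at 76.0 CPM, in the one at 3076 CPM, while Id2 has no such order.

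Id3, the inhibitor induced by pre-T cell receptor signals, had the largest change in CPM of the 6 genes. In Wt DN3 it stood at 19.7 CPM in WT05, 37.5 in WT46 and 53.0 in WT48, and in Wt DN4 at 147 CPM in WT05, 114 in WT40, 107 in WT46 and 166 in WT48. The lowest DN4 library was above the highest DN3 library. The log2 fold change was 1.79 (SE 0.30, n = 3 and 4, adjusted p = 0.00408 by edgeR), a 3.47-fold rise. DN3 of WT05, at 70 counts, was the lowest library. Without it the log2 fold change was 1.52 (adjusted p = 0.00405).

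KO-labelled mice showed the Id3 rise with less spread. KO45, KO49 and KO51 had 44.0, 42.4 and 47.5 CPM in DN3 and 121, 127 and 120 CPM in DN4. Again the stages did not overlap, and the log2 fold change was 1.42 (SE 0.10, n = 3 and 3, adjusted p = 0.000377 by edgeR), a 2.67-fold rise. Id3 also ran with the B cell markers in Wt DN4, being highest in WT48 and WT05. Without the 4 DN4 libraries highest in those markers its log2 fold change was 1.52 (adjusted p = 0.0350 by edgeR) in Wt, with 2 DN4 libraries, and 1.43 in KO-labelled mice, where the 1 DN4 library left has no spread of its own. The 6 γδ T cell markers were highest in the same Wt DN4 libraries, with sums of 2176 CPM in WT48 and 1457 CPM in WT05 against 1026 in WT46 and 951 in WT40. In KO-labelled DN4 they summed to 738 to 1109 CPM, and in DN3 to 1083 to 2176 CPM. None of the 6 was called between the genotypes in DN4, with a median log2 fold change of -0.55 beside 0.00 over all genes. The part of B and γδ T cells in the Id3 values was not tested.

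Id2, known for its role in innate lymphoid and NK cells, lay lower than Id3 and rose in Wt mice. In Wt DN3 it was at 4.50 CPM in WT05, 8.36 in WT46 and 7.35 in WT48, from 16 to 95 counts, and in Wt DN4 at 31.5 CPM in WT05, 24.5 in WT40, 25.0 in WT46 and 21.7 in WT48. All Wt DN4 libraries were above all Wt DN3 libraries, with a log2 fold change of 1.84 (SE 0.23, n = 3 and 4, adjusted p = 0.00105 by edgeR), a 3.57-fold rise. NK and innate lymphoid markers were higher in the same libraries, 324 to 456 CPM in Wt DN4 against 126 to 154 CPM in Wt DN3. Gata3, which is also a T lineage gene, made up most of the DN3 sum, at 104 ± 6.98 CPM in Wt DN3 and 111 ± 17.4 CPM in Wt DN4. Il2rb, an interleukin receptor chain, went from 2.10 ± 0.218 to 183 ± 48.6 CPM and carried most of the rise of the sum, while Ncr1, Klrb1c and Klrk1 were at 0.0975 to 3.56 CPM in Wt DN4 libraries. Of the 9 markers 7 were tested, and 5 were called higher in Wt DN4, where 13.4% of all genes were. Their median log2 fold change was 4.69. Besides Il2rb, the calls included Eomes at 8.79, Zbtb16 at 4.69 and Klrb1c at 7.60, all of them low in CPM. The part of NK and innate lymphoid cells in the Id2 value was not tested.

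In KO-labelled mice the Id2 levels of DN3 were spread over 11.1 CPM in KO45, 5.27 in KO49 and 3.22 in KO51, and those of DN4 were 23.6, 16.1 and 15.2 CPM in the same order. The stages did not overlap and Id2 was higher in DN4 in each mouse. The log2 fold change was 1.42 (95% interval 0.45 to 2.40) and its adjusted p was 0.0526 by edgeR, just past the threshold. With the mouse as a block it was 1.53 (adjusted p = 0.00124), and without DN3 of KO45 it was 2.08 (adjusted p = 0.00977). It was also called without DN4 of KO51, at 1.53 (adjusted p = 0.0474). Leaving out any of the other 4 libraries gave 1.09 to 1.52, not called, with the lowest value without DN3 of KO51 (adjusted p = 0.108).

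Id1 was hardly detected. Its counts in Wt DN3 were 3, 2 and 2 in WT05, WT46 and WT48, and in KO-labelled DN3 8, 1 and 5 in KO45, KO49 and KO51. In DN4 they were 0, 2, 1 and 2 in WT05, WT40, WT46 and WT48 and 9, 3 and 12 in KO45, KO49 and KO51. Summed over libraries, DN4 had 24 counts in KO-labelled and 5 in Wt mice, a ratio of 5.64 per scaled count with an exact 95% interval of 2.11 to 18.9 that covers counting error only. Most of the KO-labelled counts came from KO45 and KO51, and the highest level, 1.19 CPM in KO51, is that of a trace. Without a filter on low counts, the edgeR log2 fold change was 2.46 with an adjusted p of 0.826.

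**Figure D3:**
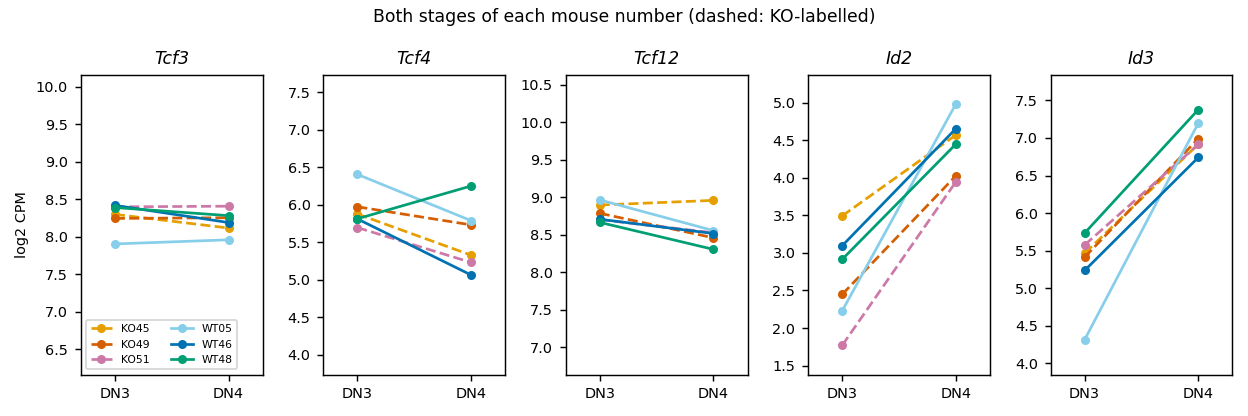
Log2 CPM of 5 members in DN3 and DN4 of the 6 mouse numbers with both stages (lines; dashed for KO-labelled), all panels spanning the same number of log2 units. Id2 and Id3 are higher in DN4 in all 6, by 1.08 to 2.76 and by 1.34 to 2.89, while Tcf3 differs by -0.23 to 0.05.

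Within mice the picture was alike. The log2 difference of DN4 less DN3 ranged for Id3 from 1.34 in KO51 to 2.89 in WT05, and for Id2 from 1.08 in KO45 to 2.76 in WT05. Tcf12 differed by -0.41 to -0.18 in 5 mice and by 0.06 in KO45. Tcf3 differed by -0.23 to 0.05. The lead of WT05 in both Id genes came with the low DN3 values of the library in which 40.8% of counts fell on 7 genes.

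Per length, E protein transcripts exceeded Id transcripts in DN3 and were near them in DN4. Levels of different genes were compared as CPM per kb over all annotated exons of a gene. By this measure the order in DN3 of Wt mice was Tcf3 at 75.7 ± 14.2 (SD, n = 3), Tcf12 at 28.4 ± 3.28, Id3 at 20.5 ± 9.30, Id2 at 2.76 ± 0.821, Tcf4 at 2.39 ± 0.603 and Id1 at 0.356 ± 0.322. Tcf12 and Id3, and Id2 and Tcf4, lay within their spread of each other. In DN4 of Wt mice Id3, at 74.5 ± 15.5 (n = 4), stood beside Tcf3, at 71.2 ± 6.70, and above Tcf12, at 23.3 ± 2.01. Id2 followed at 10.5 ± 1.70 and Tcf4 at 1.8 ± 0.753. In KO-labelled DN4 the values were 76.1 ± 7.69 (n = 3) for Tcf3, 68.5 ± 2.11 for Id3, 26.2 ± 5.13 for Tcf12, 7.51 ± 1.88 for Id2 and 1.59 ± 0.304 for Tcf4.

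These levels depend on the length chosen. The exons of Tcf4 add up to 27382 bases and those of Tcf12 to 15529 bases, while the transcripts with the longest coding sequence have 4250 and 6299 bases. With these transcript lengths Tcf12 in Wt DN3 stood at 70.1 ± 8.10 CPM per kb and Tcf4 at 15.4 ± 3.88, which placed Tcf4 above Id2 at 7.03 ± 2.09. Which Tcf4 and Tcf12 transcripts are used cannot be read from counts per gene.

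The ratio of summed E protein to summed Id levels per kb was 6.98, 4.64 and 3.39 in Wt DN3 of WT05, WT46 and WT48, and 3.73, 4.08 and 3.97 in KO-labelled DN3 of KO45, KO49 and KO51. In Wt DN4 it was 0.927 in WT05, 1.35 in WT40, 1.39 in WT46 and 0.984 in WT48. In KO-labelled DN4 it was 1.32, 1.29 and 1.47. DN3 and DN4 libraries did not overlap. With transcript lengths the ratios were 3.90 to 8.70 in DN3 and 1.07 to 1.65 in DN4. Id3 made up 81.0 to 93.8% of the summed Id level per kb in DN3 and 85.2 to 91.3% in DN4. In plain CPM the E protein sum was 798 to 850 in DN3 and 681 to 815 in DN4, and the Id sum was 25.0 to 60.6 in DN3 and 132 to 188 in DN4, so the fall in the ratio lay mostly on the Id side. These are transcript levels and not amounts of protein.

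**Figure D4:**
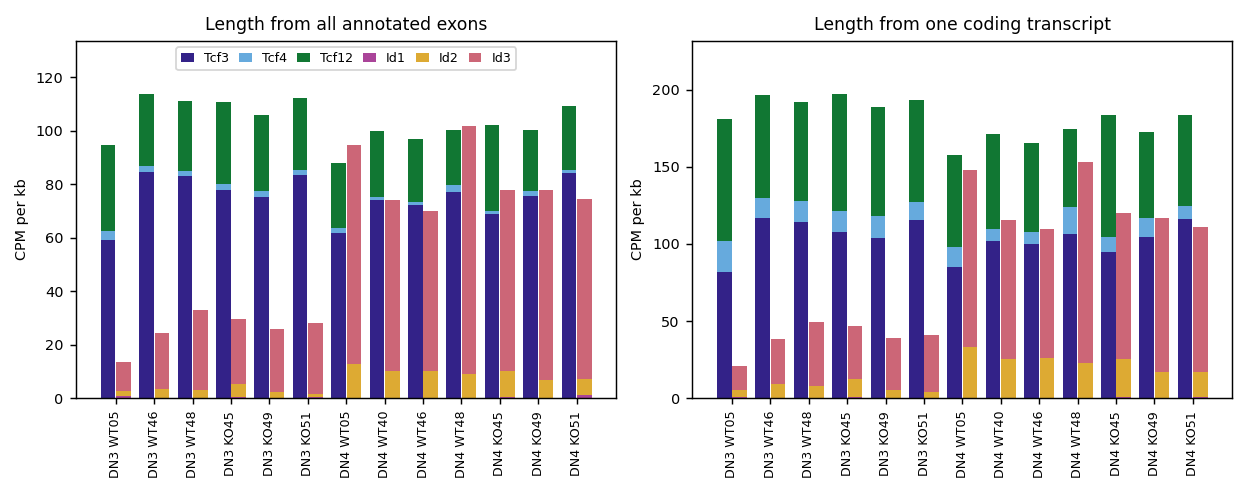
Stacked bars of CPM per kb (vertical axes, from 0) for the E protein genes (left bar) and the Id genes (right bar) of each library, with gene length from all annotated exons (left) or from 1 coding transcript (right). The Id bars reach 13.6 to 32.8 CPM per kb in DN3 and 69.9 to 102 in DN4 with lengths from all exons, mostly Id3.

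Between the genotypes no member was called at either stage. In DN3, 0% of 12105 genes passed the threshold by edgeR, where 168 had an unadjusted p under 0.05 and DESeq2's Wald test called 3. In DN4, 0.0535% of 13084 genes passed, all lower in KO-labelled mice, so no call among the members is what the background gives. In DN3 the log2 fold changes of KO-labelled against Wt were 0.03 for Tcf3 (95% interval -0.33 to 0.39), -0.21 for Tcf4 (-0.66 to 0.25), -0.02 for Tcf12 (-0.37 to 0.33), -0.09 for Id2 (-1.13 to 0.94) and 0.24 for Id3 (-0.40 to 0.88). A fall of Id2 by up to 1.13 on the log2 scale lies inside its interval, so a change of that size is not excluded here.

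In DN4 the log2 fold changes of KO-labelled against Wt were 0.12 for Tcf3 (95% interval -0.15 to 0.38), -0.15 for Tcf4 (-0.82 to 0.52), 0.19 for Tcf12 (-0.15 to 0.53) and -0.10 for Id3 (-0.44 to 0.25). Id2 came nearest to a difference. Its KO-labelled levels of 23.6, 16.1 and 15.2 CPM overlapped the Wt range of 21.7 to 31.5 CPM through KO45 alone, with a log2 fold change of -0.46 (SE 0.20, n = 3 and 4), an unadjusted p of 0.0487 and an adjusted p of 0.883 by edgeR. Without the 4 DN4 libraries highest in B cell markers, Id2 was at -0.67. That fit sets 1 KO-labelled library, assumed to vary like the 2 Wt libraries, against these and passes 897 genes, Id2 among them (adjusted p = 0.0101), against 7 in the full comparison, so this pass is not counted as a call. The summed NK and innate lymphoid markers were 243 to 306 CPM in KO-labelled and 324 to 456 CPM in Wt DN4, with none of the 9 called and a median log2 fold change of -0.01 beside 0.00 over all genes. The lower sum lay in Il2rb, at 112 against 183 CPM, and Nkg7, at 40.3 against 67.1 CPM, and not in Ncr1, Klrb1c and Klrk1, at 0.199 to 4.54 CPM in KO-labelled and 0.0975 to 3.56 CPM in Wt DN4 libraries. The part of these cells in the Id2 value was not tested.

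**Figure D5:**
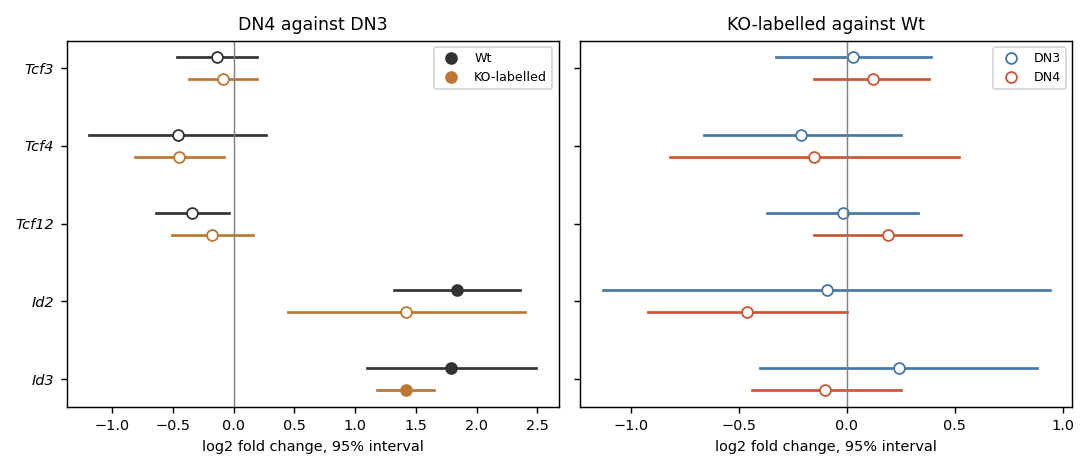
Log2 fold change with its 95% interval (horizontal axes) of 5 members for DN4 against DN3 in each genotype (left) and KO-labelled against Wt at each stage (right). Filled points passed an adjusted p of 0.05: Id2 in Wt, at 1.84, and Id3 in both genotypes, at 1.79 and 1.42.

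Whether the stage change differed by genotype was tested as an interaction over all 13 libraries. No member passed, nor did any of 13361 genes (0%; 480 had an unadjusted p under 0.05 and DESeq2's Wald test called 2). The interaction, as the log2 change of KO-labelled less that of Wt mice, was -0.40 for Id2 (95% interval -1.46 to 0.66), -0.37 for Id3 (-1.11 to 0.37), 0.05 for Tcf3 (-0.37 to 0.46), 0.17 for Tcf12 (-0.27 to 0.60) and 0.01 for Tcf4 (-0.86 to 0.88). The call of Id2 in Wt and not in KO-labelled mice is therefore not shown to be a difference between them.

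The genes around the 6 members are read against the 22.9% of genes called in Wt and the 18.6% in KO-labelled mice between the stages. Of 13 genes known to be induced by the pre-T cell receptor, all tested in both genotypes, 10 rose and 1 fell in Wt, with a median log2 fold change of 2.40, and 8 rose (9 with the mouse as a block) and 1 fell in KO-labelled mice, with a median of 2.35. Egr1, an immediate early factor that acts on Id3, went from 16.0 ± 1.72 CPM (SD, n = 3) to 88.1 ± 13.4 CPM (n = 4) in Wt, a log2 fold change of 2.40, and rose by 2.35 in KO-labelled mice. Egr2 rose by 3.81, Nr4a1, an orphan receptor of the same response, by 2.67 and Dusp6, a phosphatase of the MAP kinase path, by 2.49 in Wt. In KO-labelled mice Nab2, a partner of the Egr factors, rose by 2.58 and Cd5 by 2.55. Myc, a growth factor response gene, fell, with log2 fold changes of -0.98 in Wt and -0.96 in KO-labelled mice. The fall in KO-labelled mice was not called without DN3 of KO49 or KO51, without DN4 of KO49 or with either B cell marker alternative, and that in Wt not with library totals alone.

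Of 15 genes reported as E protein targets, all tested, 3 rose and 7 fell in Wt, and 3 rose and 6 fell in KO-labelled mice, with medians of -0.74 and -0.43. With the mouse as a block, 9 fell in Wt and 8 in KO-labelled mice. Those named here are among the ones with the smallest p. Notch1, the receptor that drives T lineage commitment, went from 1744 ± 454 CPM (n = 3) to 417 ± 25.9 CPM (n = 4) in Wt, a log2 fold change of -2.12. Cdk6, a cell cycle kinase, fell, with log2 fold changes of -2.62 in Wt and -1.99 in KO-labelled mice. Ptcra, the pre-T cell receptor α chain, went from 129 ± 16.3 CPM to 42.4 ± 9.41 CPM in KO-labelled mice (n = 3 and 3), a log2 fold change of -1.65, and Hes1 was at -3.23 there. Foxo1, a forkhead factor, rose in Wt, by 2.43. Rag1 was not called in Wt, at -0.70 (adjusted p = 0.210 by edgeR), nor in KO-labelled mice, at 0.50 (adjusted p = 0.376). With library totals alone, 4 and not 7 of the list fell in Wt. The list shares Notch1, Hes1 and Ptcra with the DN3 markers, and other genes, Cd4 among them, with those of later cells.

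Of 13 other basic helix-loop-helix and helix-loop-helix genes, 7 were tested in Wt and 6 in KO-labelled mice, with median log2 fold changes of -0.25 and -0.43. Hes1, a NOTCH-induced repressor, fell by 2.79 in Wt, and Myc fell in both genotypes as above. Lyl1, a partner of E proteins, rose by 3.69 in Wt, from 2.34 ± 1.24 CPM (n = 3) to 30.8 ± 31.2 CPM (n = 4), and was at an adjusted p of 0.0544 by edgeR in KO-labelled mice. This call in Wt was lost with limma-voom, with a minimum of 10 counts in every library, without DN3 of WT46 or WT48, without DN4 of WT05 and without the 4 DN4 libraries highest in B cell markers. Its DN4 levels were 4.88 to 9.08 CPM in the 3 libraries low in B cell markers and 29.1 to 75.0 CPM in the other 4. Lmo2, which bridges such factors in one complex, behaved alike, with 7.02 to 14.0 CPM against 28.1 to 104 CPM, and 0.132 to 0.682 CPM in DN3. In KO-labelled mice no gene of the list rose, and 1 did with the mouse as a block, with DESeq2's Wald test, with all 13 libraries in 1 fit and without DN3 of KO45, and 2 with no filter beyond 1 count and without DN4 of KO51. Id4, the remaining Id gene, was not tested at either stage.

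Among 13 cofactor and turnover genes, 2 rose and 2 fell of 11 tested in Wt, and 4 rose and 2 fell of 11 in KO-labelled mice, with medians of -0.08 and 0.03. Cbfa2t3, a corepressor that binds E proteins, fell by 1.33 in Wt, from 101 ± 20.3 CPM (n = 3) to 41.7 ± 6.79 CPM (n = 4), and by 0.71 in KO-labelled mice. Kat2a, an acetyltransferase, fell by 0.52 in Wt. Lmo4 rose by 0.67 and 0.65 in Wt and KO-labelled mice. The coactivator genes Ep300 and Crebbp rose in KO-labelled mice, by 0.68 and 0.54. In Wt they were at 0.05 and -0.57, not called, and 0 of the 11 tested genes of this list were called in the interaction. In KO-labelled mice 1 gene of the list, against 6, was called with either B cell marker alternative, and neither fall was called without DN3 of KO45, KO49 or KO51 or without DN4 of KO49. Without DN3 of KO51, and with all 13 libraries in 1 fit, 2 rises were called there, against 4, and without DN4 of KO51 1 fall, against 2. In Wt 1 rise, against 2, was called without any one of the 3 DN3 libraries or without DN4 of WT05, WT40 or WT46, and 1 fall, against 2, without DN3 of WT48 and with either B cell marker alternative. With the mouse as a block, and with library totals alone, 1 rose and 1 fell in Wt. Of 12 genes that relay BMP and TGF-β signals, which act on Id genes in many tissues, 9 were tested: Smad7 and Tgfbr2 rose in Wt, by 1.77 and 1.86, and in KO-labelled mice, by 0.91 and 1.24, where Tgfbr1 fell by 0.44. The other 7 in Wt and 6 in KO-labelled mice were not called, and of those in Wt 1 fell with the mouse as a block and 1 rose without DN3 of WT05. In KO-labelled mice all 3 calls were lost without DN3 of KO49 or KO51, without DN4 of KO49 and with either B cell marker alternative. The fall was also lost without DN3 of KO45, without DN4 of KO51 and with all 13 libraries in 1 fit, and 1 rise without DN4 of KO45. In Wt the share called, 2 of 9, was near the 22.9% of all genes, and the medians of this list were 0.13 in Wt and 0.09 in KO-labelled mice. Between the genotypes edgeR called no gene of these 5 lists at either stage, and DESeq2's Wald test called 1 of the BMP and TGF-β genes lower in KO-labelled DN4. Without the 4 DN4 libraries highest in B cell markers, with 1 KO-labelled library left, genes of 4 of the lists passed in DN4. As for Id2, these are not counted as calls, since that fit takes its spread from the Wt libraries and passes 897 genes against 7.

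The genes whose levels over the 13 libraries were most like those of a member are given as a description, since libraries of 1 stage share much else. Id3 was most like B4galnt1, Lta and Lrp10 (Pearson's r of 0.982 to 0.983 on log2 CPM) and Id2 most like Lonp2, Pnrc1 and Glipr1 (0.970 to 0.981). With the group means taken out, these correlations were 0.842 to 0.890. Tcf4 was most like Arhgap26, Zcchc2 and Xylt1 (0.936 to 0.960, and 0.913 to 0.959 with the group means taken out). Kansl1l and Tns3 were among those most like Tcf12 (0.915 and 0.910), and Tcf3 was most like Gnb1l, Imp3 and Exosc4 (0.911 to 0.912). With the group means taken out these were 0.887 and 0.857 for Tcf12 and 0.904 to 0.926 for Tcf3. The likeness of the E protein genes thus lay largely in differences between libraries of a group. Among the members, Id2 and Id3 had an r of 0.860 over the libraries and of 0.261 with the group means taken out, so they moved together by stage more than within a group. Tcf3 and Tcf12 had an r of -0.692 within groups. DN3 of WT05 had the lowest Tcf3 and the highest Tcf12 of its group, at 240 and 500 CPM. So had DN4 of KO45, at 277 and 498 CPM. How far this r rests on these libraries was not tested.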

How the data were processed

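The members and gene lists were chosen with earlier results of these data known. RNA of sorted thymocytes was made into TruSeq stranded mRNA libraries and sequenced on an Illumina HiSeq. The deposited values are raw counts of reads per gene, which the authors made with Cutadapt, STAR and featureCounts on mm10, with quality control by deepTools. Tool versions, gene annotation and strand setting are not given in the sources used here, and the authors' own tests used DESeq2. All 13 columns were used (0 unused), and none held a row without a gene. Identifiers were matched to GENCODE M21 without their version, 47310 of 47937. No member shares exon bases with an overlapping gene.

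For a comparison, the libraries of its groups alone entered a quasi-likelihood fit of edgeR 4.0.16 in R 4.3.3 (glmQLFit, glmQLFTest). Genes were filtered by filterByExpr (minimum count 10) and libraries scaled by TMM. Adjustment was by Benjamini-Hochberg over every tested gene, at a threshold of 0.05. Standard errors were taken from the log2 fold change and its F statistic. The 95% intervals come from these and the total degrees of freedom of the test, residual plus prior. CPM are on TMM-scaled library sizes over all 13 libraries, and log2 CPM use a prior count of 2. At 5926848 to 14148661 counts per library, a gene at 1 CPM has few counts, which limits Id1. Mouse numbers were not entered in the fits. Same-numbered DN3 and DN4 libraries deviated together from their group means (r of 0.127 to 0.458 over 13361 genes in 6 mouse numbers). The r between libraries of different numbers is not given, so these values alone cannot show pairing. The numbers, which come from the sample titles, are taken to pair the samples, and the blocked value is given where it changes a call. Nothing in the labels states that libraries of 1 group came from separate animals beyond these numbers. No pair of libraries of a group agreed within sampling noise.

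Named are the 6 members, Opa1, per list up to 4 called genes with the smallest p, and per member with a mean of at least 1 CPM the 3 protein-coding genes with the highest r. Cd4, Rag1, Lyl1 and Lmo2 by library, the marker genes at 0, the levels of single NK, innate lymphoid and plasmacytoid dendritic cell markers and Id4 were named after their values were seen. A few genes that the rule names are not reported here. Alternatives were DESeq2 1.42.0, limma 3.58.1 (voom), other scalings and filters, an adjusted p of 0.1, all 13 libraries in 1 fit, the mouse block and each library left out. The scripts were tested on simulated data. Columns of the authors' own comparisons are not in the table used here.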

Additional observations from a re-analysis of the deposited data

How the results depend on the processing

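The calls of Id2 and Id3 in Wt and of Id3 in KO-labelled mice held under all alternatives run, with log2 fold changes of 1.66 to 2.01 for Id2 and 1.46 to 2.14 for Id3 in Wt and 1.37 to 1.44 for Id3 in KO-labelled mice (1 of these fits has 1 DN4 library). In KO-labelled mice the number of members called between the stages, 1, became 2 with no filter beyond 1 count, with DESeq2's Wald test, with limma-voom and with all 13 libraries in one fit, in each case by adding Id2, and 3 at an adjusted p of 0.1 and with the mouse as a replicate block, by adding Tcf4 too. It was 1 to 2 with single libraries left out. In Wt it was 2 with single libraries left out and under the other alternatives, except that it was 3 at an adjusted p of 0.1, by adding Tcf12, and with either B cell marker alternative, by adding Tcf4. The block changed no other call of a member. Between the genotypes and for the interaction the number was 0 under all alternatives, except that in DN4 it was 1 without the 4 DN4 libraries highest in B cell markers, where 1 KO-labelled library is left. The cause of these changes was not tested.

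Signs turned only for values that were not called. Without those 4 libraries, Tcf3 between the stages in KO-labelled mice was 0.09, Tcf4, Tcf12 and Id3 between the genotypes in DN4 were 0.21, -0.00 and 0.15, and the interaction of Tcf12 was -0.02. With the B cell marker covariate, Tcf3 between the stages in KO-labelled mice was 0.02 and Tcf4 between the genotypes in DN4 was 0.04. With library totals, KO-labelled against Wt in DN3 was 0.11 for Tcf4, 0.27 for Tcf12 and 0.09 for Id2, and the interaction was -0.10 for Tcf3, -0.25 for Tcf4 and -0.07 for Tcf12. With no filter beyond 1 count, Tcf12 in DN3 was 0.00 and the interaction of Tcf4 was -0.00, and with the mouse block the latter was -0.10. With single libraries left out, the genotype values in DN3 ranged from -0.09 to 0.11 for Tcf3, -0.32 to 0.03 for Tcf4, -0.08 to 0.11 for Tcf12, -0.72 to 0.23 for Id2 and -0.02 to 0.58 for Id3, in DN4 from -0.31 to 0.12 for Tcf4 and -0.19 to 0.01 for Id3, and the interaction from -0.04 to 0.20 for Tcf3, -0.20 to 0.29 for Tcf4 and -0.73 to 0.23 for Id2.

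Over all genes, the 2903 calls between the stages in Wt were 1782 with library totals, 1766 without the 4 libraries and 1845 to 3393 with single libraries left out (1877 without DN3 of WT46, 1918 without DN3 of WT48, 1845 without DN4 of WT05). The 2338 in KO-labelled mice were 4499 with the mouse as a replicate block, 714 without the 4 libraries, 528 with the covariate and 1407 to 2790 with single libraries left out. The 7 between the genotypes in DN4 were 11 with no filter beyond 1 count, 51 with DESeq2, 897 and 19 with the B cell marker alternatives and 0 to 8 with single libraries left out, and the 0 in DN3 were at most 3. Depth limits Id1, at 0 to 12 counts, and Id2 in DN3, at 16 to 133 counts.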
